A study of Mus musculus with 6 samples.

Results

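The genes described here encode heavy chains of mouse major histocompatibility complex class I (MHC-I) molecules, and they were chosen by name: H2-K1, H2-D1, H2-Q4, H2-Q6, H2-Q7, H2-T23 and H2-M3, 7 of the 23337 genes in the deposited table. RNA from sorted LICs (leukaemia initiating cells, which can start the disease anew) had been sequenced in 3 libraries from neonatal leukaemia (replicates 4, 7 and 8) and 3 from adult leukaemia (replicates 1, 2 and 4). All 6 were labelled as mouse haematopoietic stem and progenitor cells. The labels name neither strain, sex nor leukaemia driver, and nothing in them tells whether each replicate was a different animal. The p-values therefore speak of the scatter among these 6 libraries, part or all of which may be technical.

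A class I molecule is a heavy chain held together with the light chain beta-2 microglobulin, encoded by B2m, and it carries a peptide from inside the cell to the surface. The classical heavy chains, H2-K and H2-D, show peptides to cytotoxic CD8 T cells. The non-classical ones have narrower tasks: H2-T23 encodes Qa-1, which carries signal peptides of other class I chains and is read by the NKG2 receptors of natural killer cells, H2-M3 presents N-formylated peptides of bacterial or mitochondrial origin, and H2-Q7 and its close relatives H2-Q6, H2-Q8 and H2-Q9 belong to the Qa-2 group. H2-Q4 encodes a further non-classical chain, Qb-1. Transcription of class I genes is driven through a short promoter region that is bound by NF-kappaB, interferon regulatory factors and an assembly that includes the regulator NLRC5.

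The 7 genes lie on chromosome 17 of build mm10. H2-K1 lies apart from the others at 33996012 to 34000333 on the minus strand. H2-D1 (35263094 to 35267497), H2-Q4 (35379617 to 35384674), H2-Q6 (35424877 to 35428361) and H2-Q7 (35439155 to 35443773) follow one another on the plus strand. H2-T23 lies at 36029977 to 36032701 on the minus strand and H2-M3 at 37270234 to 37274485 on the plus strand.

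The promoters of 4 of these genes are shown so that the motifs they hold, and those that H2-Q6 and H2-T23 lack, can be read beside the levels compared below. Each line gives the 190 bases before the RefSeq start site (GRCm38.p6, the mm10 assembly), 5′ to 3′, with matches to 4 motifs in capitals: GGGATTCCC (NF-kappaB type), TTTCNNTT (core of the interferon-stimulated response element, ISRE), TGACG (half-site of a cAMP response element) and CCAAT, each on either strand. None of the printed matches overlaps another. The RefSeq start of H2-Q6 lies 27 bases from the start in the counting annotation, and the other 3 starts coincide.
H2-K1, chr17:34000334-34000523, minus strand: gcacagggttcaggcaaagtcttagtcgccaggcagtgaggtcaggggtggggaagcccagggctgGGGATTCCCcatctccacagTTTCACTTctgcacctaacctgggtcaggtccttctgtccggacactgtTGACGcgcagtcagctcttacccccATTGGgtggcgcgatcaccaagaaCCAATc
H2-D1, chr17:35262904-35263093, plus strand: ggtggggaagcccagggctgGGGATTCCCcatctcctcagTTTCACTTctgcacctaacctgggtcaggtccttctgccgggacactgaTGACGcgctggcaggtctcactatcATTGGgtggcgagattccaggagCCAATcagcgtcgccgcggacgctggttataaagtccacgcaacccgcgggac
H2-Q6, chr17:35424660-35424849, plus strand: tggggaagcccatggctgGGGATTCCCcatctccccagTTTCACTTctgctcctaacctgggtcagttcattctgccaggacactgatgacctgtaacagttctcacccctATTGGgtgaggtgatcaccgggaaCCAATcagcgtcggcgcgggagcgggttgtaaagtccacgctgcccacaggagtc
H2-T23, chr17:36032702-36032891, minus strand: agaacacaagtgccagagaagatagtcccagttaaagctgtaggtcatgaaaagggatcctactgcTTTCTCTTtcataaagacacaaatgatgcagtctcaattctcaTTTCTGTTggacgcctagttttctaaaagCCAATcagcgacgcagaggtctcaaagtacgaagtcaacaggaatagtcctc

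H2-K1 and H2-D1 held all 4 motifs in the 300-base windows running from 250 bases before the start to 50 after it, and so did H2-Q7. H2-Q6 lacked TGACG, H2-Q4 and H2-M3 lacked GGGATTCCC, and H2-T23 held only TTTCNNTT and CCAAT. Only exact letters were searched, so variants, such as GGGATTTCCC in H2-Q4, were not counted. Of 32817 RefSeq promoter windows of the same length, GGGATTCCC was found in 0.3535%, TTTCNNTT in 23.9%, TGACG in 20.8% and CCAAT in 37.4%, and all 4 in 5 windows, which were 2 alternative windows of H2-K1 and 1 each of H2-D1, H2-Q7 and Zfp263. The motifs were picked with these sequences in view, so the shares are a description only. Over the aligned part of the 190-base stretches, H2-K1 and H2-D1 were identical at 128 of 143 bases and H2-Q6 and H2-Q7 at 146 of 150, whereas H2-K1 and H2-M3 were identical at 111 of 176.

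The family's sequence likeness also bears on the counts. Reads were 75 bases long, so each gene's longest coding transcript in GENCODE M21 was cut into every possible 75-base window. These transcripts differ from the exons used for counting. For H2-Q6 the transcript has 2085 bases and the counted exons 981, so the shares over counted bases may differ. H2-M3 had 0 of 1364 windows identical to a stretch of another gene's transcript, and H2-K1 had 24 of 1545, all of them shared with H2-D1. H2-D1 shared 144 of 2028 windows, and the gene it shared most with was H2-Q1. The shares were 21.7% in H2-Q4, 21.1% in H2-Q6, 21.7% in H2-Q7 and 13.1% in H2-T23. With 2 mismatches allowed against other H2 genes, 53.5% of H2-Q6 windows, 42.7% of H2-Q7 windows and 38.8% of H2-T23 windows had such a neighbour, against 20.3% for H2-K1, 17.7% for H2-D1 and 0.513% for H2-M3. Counts of H2-Q and H2-T genes may therefore hold reads of their relatives, and the values below for H2-Q4, H2-Q6 and H2-T23 are uncertain to that extent.

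**Figure D1:**
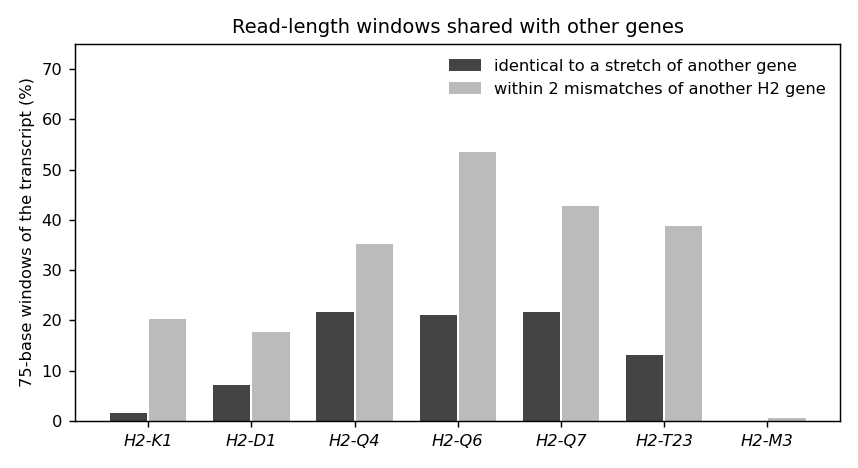
Share of 75-base windows (%, bar chart from 0) of each heavy chain gene's longest coding transcript that are identical to a stretch of another gene's transcript (dark bars) or lie within 2 mismatches of another H2 gene (light bars). H2-Q6 has the tallest light bar at 53.5%, and H2-M3 is almost free of shared windows.

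H2-Q7 had 0 counts in all 6 libraries, and so did H2-Q9. In the annotation used for counting, 1521 of the 1536 exon bases of H2-Q7 were also exon bases of H2-Q9 on the same strand, which left 15 bases to H2-Q7 alone. Counting was run without the option that lets a read count for overlapping genes, so the zero gives no measure of H2-Q7 RNA. None of the other 6 heavy chain genes overlapped the exons of another gene, and all 6 passed the filter on low counts and were tested.

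The libraries held 3932833, 64712241 and 66132051 counts in neonatal replicates 4, 7 and 8, against 60113466 to 65183188 in the adult group. The smallest library, neonatal replicate 4, gave 4165 counts for H2-D1 but only 41 for H2-Q4, 113 for H2-M3 and 119 for H2-Q6. Levels are in CPM, counts scaled to the same library total after TMM scaling between libraries, unless a scale per kilobase is named. Xist was at 51.7 to 186 CPM in the neonatal libraries and 0.610 to 0.920 CPM in the adult libraries, and Ddx3y at 0 to 0.0148 CPM in the neonatal libraries and 98.8 to 154 CPM in the adult libraries, so sex and age group cannot be told apart in these libraries.

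Per kilobase of exon (RPKM), the order of levels was the same in each of the 6 libraries: H2-D1, H2-K1, H2-T23, H2-Q6, H2-M3 and H2-Q4. The mean level of H2-D1 was 765.9 ± 58.6 RPKM in neonatal and 466.8 ± 103 RPKM in adult LICs (SD over 3 libraries each). At the other end of the order, H2-Q4 averaged 6.85 ± 0.627 RPKM in neonatal and 4.29 ± 0.653 RPKM in adult LICs (SD over 3 libraries each). Neighbours in this order did not overlap across libraries of a group, except that the level of H2-Q6 (6.78 to 11.9 RPKM) overlapped that of H2-M3 (6.44 to 11.1 RPKM) in adult LICs. In neonatal LICs H2-Q6 stood at 30.8 to 36.3 RPKM, above H2-M3 at 10.49 to 23.7 RPKM.

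The comparison of neonatal with adult LICs asked how the 2 leukaemias' initiating cells differ in RNA. All 6 tested heavy chain genes had higher mean levels in neonatal LICs, by 1.58 to 3.37 times, and the neonatal and adult libraries did not overlap in 5 of them, H2-M3 being the exception. The difference was greatest for H2-Q6. None of the 6 passed edgeR's quasi-likelihood test over all genes on 6 libraries, where 7 of 13272 genes (0.0527%) passed in either direction. Family members share reads, so the 6 genes are not independent of one another.

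Of the classical chains, H2-D1 was at 1244.9, 1442 and 1301 CPM in the neonatal replicates 4, 7 and 8, against 944 CPM, 606 CPM and 880 CPM in the adult replicates 1, 2 and 4. The lowest neonatal library was 1.32 times the highest adult one. Its log2 fold change, neonatal minus adult, was 0.71 ± 0.31 (approximate SE, edgeR adjusted p = 0.423). H2-K1 followed the same pattern, with 546 CPM, 587 CPM and 508 CPM in the neonatal replicates 4, 7 and 8 and 403 CPM, 270.5 CPM and 366 CPM in the adult replicates 1, 2 and 4. The groups did not overlap, and adult replicate 2 was again the lowest library (log2 fold change 0.66 ± 0.29, approximate SE, edgeR adjusted p = 0.432).

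Of the Qa-2 group and its neighbour, H2-Q6 was at 35.6, 30.2 and 34.4 CPM in the neonatal replicates 4, 7 and 8, against 11.7, 6.65 and 11.5 CPM in the adult replicates 1, 2 and 4. The lowest neonatal library was 2.59 times the highest adult one. The means were 33.4 ± 2.81 CPM in the neonatal libraries and 9.93 ± 2.84 CPM in adult LICs (SD over 3 libraries each), a log2 fold change of 1.75 ± 0.36 (approximate SE, edgeR adjusted p = 0.140). In the shallow neonatal replicate 4 the exact Poisson interval of this level, which covers counting error only, was 29.5 to 42.6 CPM, still above the adult values. H2-Q4 was at 12.3, 11.2 and 13.4 CPM in the neonatal replicates 4, 7 and 8 and at 8.95, 6.64 and 7.47 CPM in the adult replicates 1, 2 and 4 (log2 fold change 0.68 ± 0.38, approximate SE, edgeR adjusted p = 0.545). These libraries did not overlap either, but the Poisson interval of neonatal replicate 4, 8.79 to 16.6 CPM, reached the highest adult value.

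H2-T23, the Qa-1 gene, was at 174 CPM, 140.2 CPM and 133 CPM in the neonatal replicates 4, 7 and 8, against 84.6, 96.9 and 58.8 CPM in the adult replicates 1, 2 and 4. The groups were apart by 1.37 times between the nearest libraries (log2 fold change 0.90 ± 0.31, approximate SE, edgeR adjusted p = 0.306). Unlike H2-D1, H2-K1, H2-Q4, H2-Q6 and H2-M3, it had its highest adult level in replicate 2, the library in which those 5 were lowest. H2-M3, the presenter of formylated peptides, was at 33.8, 17.6 and 14.95 CPM in the neonatal replicates 4, 7 and 8 and at 14.2, 9.17 and 15.9 CPM in the adult replicates 1, 2 and 4. Here the groups overlapped, and neonatal replicate 4 alone stood well above the rest (log2 fold change 0.74 ± 0.44, approximate SE, edgeR adjusted p = 0.570).

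**Figure D2:**
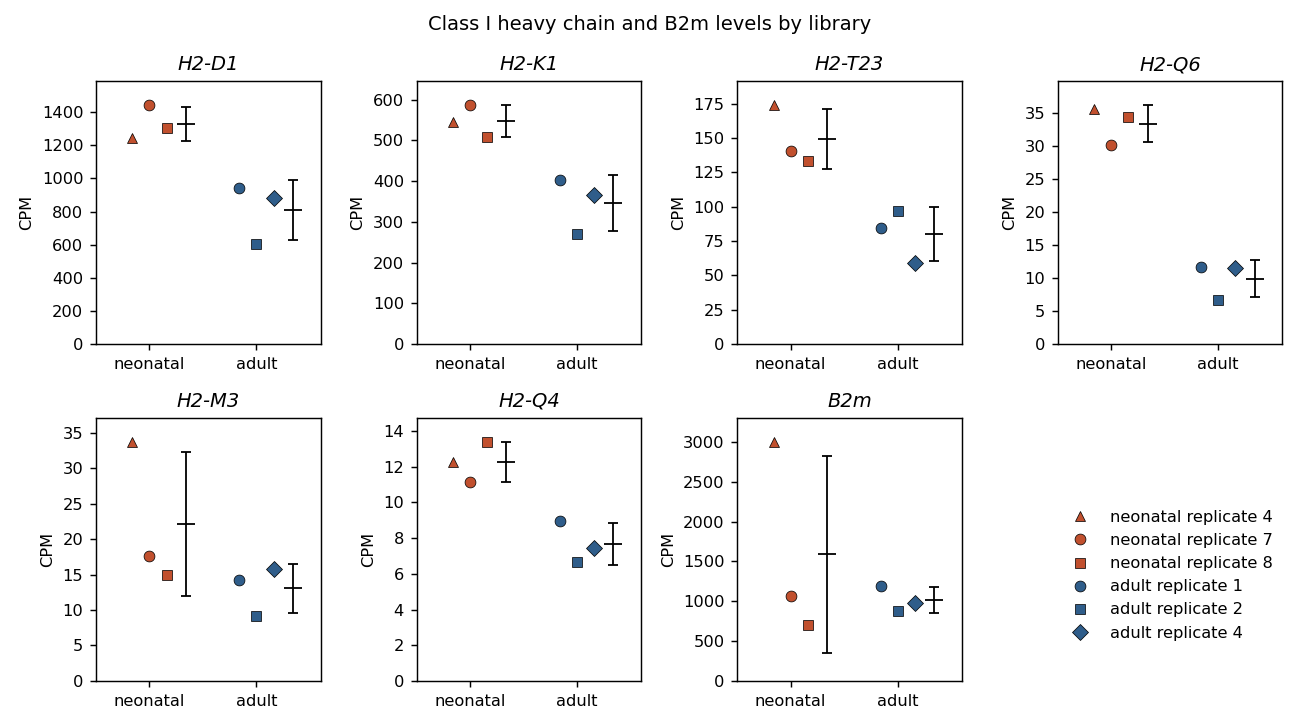
Level of each tested heavy chain gene and of B2m (CPM, linear axes from 0) in 3 neonatal and 3 adult libraries, 1 point per library, with the mean and SD beside each group. Neonatal points lie above all adult points for H2-D1, H2-K1, H2-T23, H2-Q6 and H2-Q4, while H2-M3 and B2m overlap, with neonatal replicate 4 the highest point of both.

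Read as a group, 6 of 6 tested heavy chain genes had a positive log2 fold change with a median of 0.73, against 53.5% of the 13272 genes tested and a median of 0.05. Every neonatal library was above every adult one in 5 of 6, against 7.67% of all genes tested. At an unadjusted edgeR p below 0.05 there were 2 of the 6, H2-Q6 and H2-T23, against 11.9% of all genes. The limma voom fit called 0 of the 6. DESeq2 called H2-Q6 alone (adjusted p = 0.000128), where it called 2.45% of 13203 genes higher. Over 16 alternative settings the adjusted p of H2-Q6 ran from 0.000128 to 0.413.

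With neonatal replicate 4 left out, H2-Q6 rose in neonatal LICs (log2 fold change 1.71 ± 0.32, approximate SE, edgeR adjusted p = 0.0431), 1 of 6 against 3.72% of 13856 genes called higher. The other 5 did not pass: H2-D1 had a log2 fold change of 0.77 (edgeR adjusted p = 0.0887), H2-T23 0.78 (0.0934), H2-K1 0.67 (0.102), H2-Q4 0.69 (0.232) and H2-M3 0.33 (0.559). The median of the 6 remained at 0.73, against -0.05 over all genes. In 5 of 6, both remaining neonatal libraries were above every adult one, as they were for 25.0% of all genes tested. The log2 fold change of H2-M3 was 0.74 with neonatal replicate 4 and 0.33 without it, so its difference rested largely on that library.

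**Figure D3:**
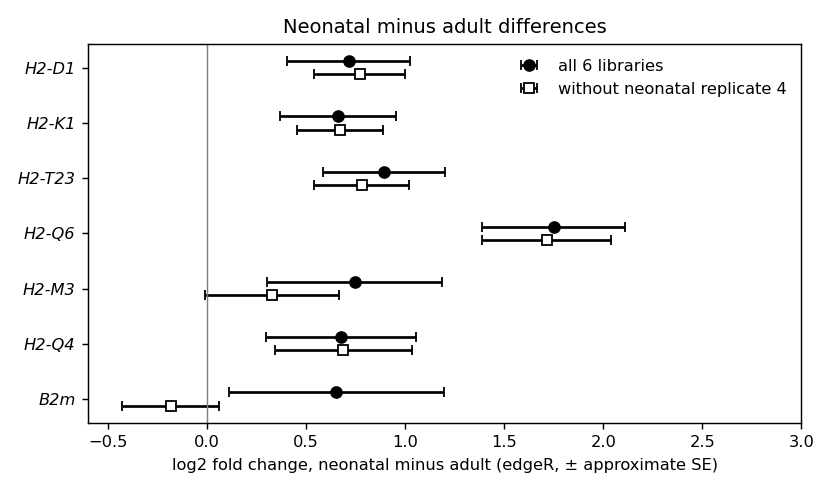
Log2 fold change, neonatal minus adult (edgeR, horizontal axis), with approximate SE, for the 6 tested heavy chain genes and B2m, on all 6 libraries (filled circles) and without neonatal replicate 4 (open squares). H2-Q6 lies apart from the others at 1.75 and 1.71, and B2m changes sign, with 0.65 and -0.18.

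Ratios between heavy chain counts within a library do not depend on the scaling between libraries, and they split the genes. H2-D1 counts per H2-K1 count were 2.28, 2.46 and 2.56 in neonatal replicates 4, 7 and 8, and 2.34, 2.24 and 2.41 in adult replicates 1, 2 and 4. The pair thus kept nearly 1 proportion in all 6 libraries, with overlapping groups. H2-Q6 counts per 1000 H2-D1 counts were 28.6, 20.96 and 26.5 in neonatal replicates 4, 7 and 8, against 12.3, 10.97 and 13.03 in adult replicates 1, 2 and 4. The mean ratio was 2.09 times higher in neonatal LICs without overlap, so H2-Q6 differed between the groups by more than H2-D1 did. H2-Q4 per 1000 H2-D1 counts overlapped, with means of 9.29 in neonatal and 9.63 in adult LICs. H2-T23 per 1000 H2-D1 counts ranged from 97.2 to 139.7 in neonatal and from 66.7 to 159.8 in adult LICs. H2-Q8 per 1000 H2-D1 counts, 14.6 to 17.8 in neonatal and 9.72 to 13.5 in adult LICs, also stood apart. No test was run on these ratios, since they were picked with the values known.

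**Figure D4:**
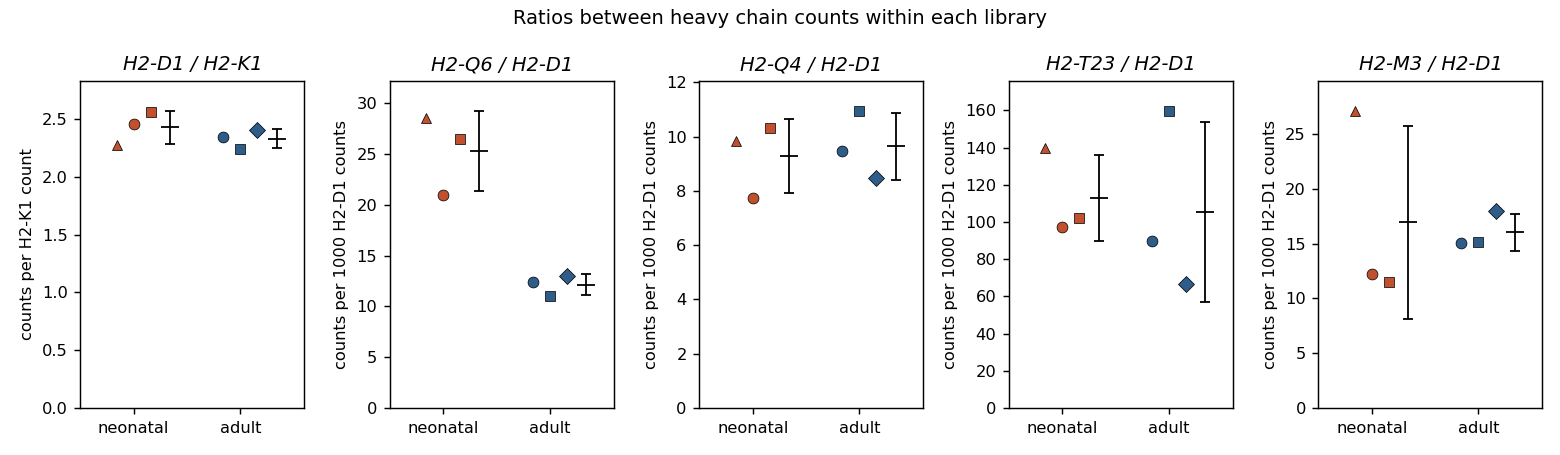
Ratio between the counts of 2 heavy chain genes within each library (linear axes from 0), with group mean and SD, neonatal left and adult right. Of the 5 ratios plotted, only that of H2-Q6 to H2-D1 separates the groups, at 20.96 to 28.6 counts per 1000 in neonatal and 10.97 to 13.03 in adult LICs.

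As a share of the summed counts of the 7 genes, H2-K1 and H2-D1 together dominated every library. H2-K1 held 25.4% to 26.7% in neonatal and 27.2% to 27.5% in adult libraries. H2-T23 varied more within the adult group than between the groups, from 4.39% (exact binomial 95% interval 4.25% to 4.52%) in adult replicate 4 to 9.73% (9.51% to 9.96%) in adult replicate 2. These intervals cover counting error only. H2-Q6 held 1.36% to 1.74% in neonatal and 0.668% to 0.856% in adult libraries.

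Because H2-Q genes share reads, the 8 H2-Q rows were also summed to 1 row before the fit. The rows of H2-Q7 and H2-Q9 held 0 counts, so reads lost to their overlap are missing from the sum. H2-Q7 was the gene that shared most identical windows with H2-Q6, at 197. The summed row had a log2 fold change of 0.94 (edgeR adjusted p = 0.248), lower than the 1.75 of H2-Q6 alone. H2-Q8, the relative of H2-Q6, was at 22.1, 23.4 and 18.98 CPM in the neonatal replicates 4, 7 and 8 and at 12.2, 5.90 and 11.9 CPM in the adult replicates 1, 2 and 4 (log2 fold change 1.11, edgeR adjusted p = 0.332). H2-Q10, a secreted class I chain named after its values were seen, had a log2 fold change of -0.82 (edgeR adjusted p = 0.646), with 2.69 to 5.14 CPM in the neonatal libraries and 3.54 to 11.2 CPM in the adult libraries. Summed with the other H2-T rows, H2-T23 gave 0.76 (edgeR adjusted p = 0.375), and H2-K1 with H2-D1 gave 0.70 (edgeR adjusted p = 0.440).

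Of the other class I and class I-like heavy chains listed, 27 were in the file and 13 were tested, 10 with a positive and 3 with a negative log2 fold change (median 0.68), and edgeR called 0 of them with or without neonatal replicate 4. On 6 libraries 2 had an unadjusted edgeR p below 0.05, against 11.9% of all genes, limma voom called 0, and DESeq2 called 1, Hfe, as lower. Over all genes DESeq2 called 759 of 13203, and 323 of these were higher. Hfe, the class I-like regulator of iron uptake, was the furthest below 0, at 5.13 to 15.5 CPM in the neonatal libraries and 19.8 to 73.7 CPM in adult ones (log2 fold change -2.10 ± 0.60, approximate SE, edgeR adjusted p = 0.223). H2-T10 was at 5.95 to 8.67 CPM in the neonatal libraries and 3.33 to 3.99 CPM in the adult libraries (edgeR adjusted p = 0.468). Of the 27 genes, 9 had 0 counts in every library, among them the H2-M1, H2-M9 and H2-M11 genes.

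The light chain gene B2m showed overlapping groups. It was at 3005, 1069 and 705 CPM in the neonatal replicates 4, 7 and 8, against 1189.6, 877 and 973 CPM in the adult replicates 1, 2 and 4. The summed counts of H2-K1 and H2-D1 per B2m count were 0.596, 1.90 and 2.57 in the neonatal libraries and 1.13, 0.9999 and 1.28 in the adult ones. Neonatal replicate 4 was thus the lowest of the 6 and the other neonatal libraries the highest. The log2 fold change of B2m was 0.65 ± 0.54 on 6 libraries and -0.18 ± 0.25 without neonatal replicate 4 (approximate SE, edgeR adjusted p = 0.714 and 0.660).

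Among 16 listed regulators of class I transcription, 10 were positive and 6 negative (median 0.13), and edgeR, limma voom and DESeq2 each called 0 on 6 libraries, with 0 at an unadjusted edgeR p below 0.05. Nlrc5, the class I transactivator, was at 1.20, 12.1 and 1.75 CPM in the neonatal replicates 4, 7 and 8 and at 3.49, 2.63 and 7.03 CPM in the adult replicates 1, 2 and 4. Its groups overlapped, with neonatal replicate 4 the lowest of all and neonatal replicate 7 the highest. Irf1, an interferon-induced activator of class I genes, was at 35.6 to 62.4 CPM in the neonatal libraries and 24.7 to 43.4 CPM in adult ones (log2 fold change 0.67 ± 0.36, approximate SE, edgeR adjusted p = 0.532). Rfx5, a partner of NLRC5 at the promoter, ranged from 11.96 to 37.2 CPM in the neonatal libraries and from 16.9 to 23.8 CPM in the adult libraries. Creb1, a factor of cAMP response elements, was at 63.6 to 72.6 CPM in the neonatal libraries and 87.9 to 121 CPM in adult ones (log2 fold change -0.54 ± 0.28, approximate SE, edgeR adjusted p = 0.503). Rela, the NF-kappaB subunit gene, was the 1 regulator that rose without neonatal replicate 4 (log2 fold change 1.31, edgeR adjusted p = 0.0361), 1 of 16 against 3.72% of 13856 genes. It was at 148.6 and 196 CPM in the neonatal replicates 7 and 8, 64.7 to 73.9 CPM in the adult libraries and 46.0 CPM in neonatal replicate 4.

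Of 13 peptide processing and loading genes, 12 were positive (median 0.68), against 53.5% of all genes tested. On 6 libraries edgeR called 0, and 4 rose without neonatal replicate 4, against 3.72% of 13856 genes called higher. On 6 libraries 4 had an unadjusted edgeR p below 0.05, against 11.9% of all genes. Limma voom called 0, and DESeq2 called 1, Psmb8, as higher, where it called 2.45% of 13203 genes higher. The 4 that rose without neonatal replicate 4 were Psmb8, Tap1, Tap2 and Tapbp, of which the last 3 are named because of that call. Tap1, a subunit of the transporter that brings peptides to class I molecules, was lowest of all 6 libraries in neonatal replicate 4, at 27.2 CPM against 156 to 157 CPM in the other neonatal libraries and 34.2 to 60.2 CPM in the adult libraries. Psmb8, an immunoproteasome subunit gene, was at 589 to 864 CPM in the neonatal libraries and 230.4 to 317 CPM in the adult libraries. Of 20 interferon receptors and interferon-responsive genes, 15 were positive and 5 negative (median 0.22). On 6 libraries edgeR, limma voom and DESeq2 each called 0, and 3 had an unadjusted edgeR p below 0.05, against 11.9% of all genes. Ifit2 was at 6.87 to 13.05 CPM in the neonatal libraries and 15.3 to 41.5 CPM in the adult libraries, whereas Igtp was at 23.1 to 29.8 CPM in the neonatal libraries and 10.08 to 18.1 CPM in the adult libraries. Gbp7 was lower in each neonatal library than in any adult one, at 12.4 to 20.6 CPM against 20.8 to 41.5 CPM. Ifnar1, a chain of the type I interferon receptor named for its call, rose without neonatal replicate 4 (log2 fold change 1.19, edgeR adjusted p = 0.0400), 1 of 20 against 3.72% of 13856 genes.

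The 5 genes whose log2 CPM followed the mean standardised profile of the 6 heavy chain genes most closely over 6 libraries, out of 9745 genes with at least 5 CPM on average, were Cacna1a (Pearson r = 0.988), Tpst1 (0.981), Mpg (0.976), Ociad2 (0.976) and Egfl7 (0.975). With 6 libraries in 2 groups, such values describe the group difference as much as any finer likeness. Among the heavy chain genes themselves, r was 0.992 for H2-K1 with H2-D1 and 0.553 for H2-T23 with H2-M3.

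Most listed markers of mature lymphocytes were near absent. The exception was Cd79b of the B cell list, at 70.7 to 146 CPM in the neonatal libraries and 28.3 to 68.5 CPM in the adult libraries. Ms4a1 and Pax5 of the B cell list, Cd3e, Cd3g and Cd4 of the T cell list and Ncr1 and Gzma of the natural killer cell list had 0 counts in every library, and the T cell list summed to 0.299 to 0.595 CPM in the neonatal libraries and 0.265 to 0.655 CPM in the adult libraries. Dendritic cell markers summed to 1.49 to 5.26 CPM in the neonatal libraries and 3.402 to 5.64 CPM in the adult libraries. Macrophage markers summed to 37.1 to 113 CPM in the neonatal libraries and 69.8 to 129 CPM in the adult libraries, almost all of it Emr1. All 5 macrophage markers tested had negative log2 fold changes on 6 libraries (median -3.37). That of Emr1, whose groups overlapped, was -0.25, and 0.06 without neonatal replicate 4. Of the 5, edgeR and limma voom called 0 on 6 libraries, 3 had an unadjusted edgeR p below 0.05, against 11.9% of all genes, and DESeq2 called 1, Mertk, as lower. Over all genes DESeq2 called 759 of 13203, and 323 of these were higher. C1qa, C1qb, C1qc and Mertk were lower in every neonatal library than in any adult one, but near the floor. C1qb reached 0.726 CPM in the neonatal libraries against 2.20 to 6.38 CPM in the adult ones, and Mertk 0.127 against 0.452 to 3.17 CPM. The share of all genes lower without overlap was not computed. The B cell list differed without overlap, at 71.98 to 147 CPM in the neonatal libraries and 28.5 to 69.4 CPM in the adult libraries, almost all of it Cd79b, and so did the endothelial or stromal list, at 71.4 to 99.7 CPM in the neonatal libraries and 28.1 to 67.9 CPM in the adult libraries, nearly all of it Pecam1. Mature neutrophil markers summed to 27.5 to 155 CPM in the neonatal libraries and 1757 to 14330 CPM in the adult libraries, highest in adult replicate 2, where 5 of the 6 heavy chain genes were lowest. Almost all of the adult sum was Camp, Ngp, S100a8 and S100a9. Among the adult libraries each of these was lowest in replicate 4, where only H2-M3 of the 6 heavy chain genes was highest. Camp, Ngp, S100a8, S100a9 and Ltf did not overlap between the groups. As above, the share of all genes lower without overlap was not computed. All 8 neutrophil markers had negative log2 fold changes on 6 libraries (median -6.50), and edgeR and limma voom called 0 of them. At an unadjusted edgeR p below 0.05 there were 5, against 11.9% of all genes. DESeq2 called the 5 markers without overlap as lower. Without neonatal replicate 4, edgeR called S100a8 alone as lower (edgeR adjusted p = 0.0437). Cxcr2, Mmp8 and Mmp9 did overlap, Cxcr2 at 8.48 to 42.4 CPM in the neonatal libraries and 16.7 to 31.5 CPM in the adult ones. The part of cells with such markers in the heavy chain difference was not tested, and in bulk RNA fewer cells of a type and less RNA per cell cannot be told apart. The 8 myeloid and progenitor markers split into 4 with positive and 4 with negative log2 fold changes. On 6 libraries edgeR called 0 of them, and 2 had an unadjusted edgeR p below 0.05, against 11.9% of all genes. Limma voom and DESeq2 each called 1, Flt3, as higher. Over all genes limma voom called 3 of 13272 higher, and DESeq2 called 323 of 13203 higher. Flt3 was at 256 to 1231 CPM in the neonatal libraries and 4.58 to 19.4 CPM in the adult ones, and Cd34 at 396 to 662 CPM in the neonatal libraries and 8.16 to 105 CPM in the adult ones. Mpo, Elane, Itgam and Ptprc had the negative values. Kit levels spanned 50.1 to 85.8 CPM in adult LICs. Neonatal replicate 4 fell below that span with 23.6 CPM, while replicate 7 (264 CPM) and replicate 8 (186 CPM) exceeded it. Its log2 fold change was 1.23 on 6 libraries (edgeR adjusted p = 0.571). Once neonatal replicate 4 was left out, edgeR called 2 of the 8 higher, against 3.72% of 13856 genes, and 1 lower. Those were Flt3 (edgeR adjusted p = 0.0348), Kit (log2 fold change 1.75, 0.0361) and, as lower, Elane (-2.82, 0.0361). Over all genes that fit called 828 of 13856, and 516 of these were higher. The myeloid and progenitor list summed to 3526 to 11410 CPM in the neonatal libraries and 10570 to 20320 CPM in the adult libraries. Natural killer cell markers summed to at most 1.79 CPM in any neonatal library and 1.39 CPM in any adult one, and erythroid markers to at most 0.299 CPM in any neonatal library and 1.65 CPM in any adult one.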

How the data were processed

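PolyA-selected RNA from 3 neonatal and 3 adult LIC samples had been sequenced, and reads were counted per gene. Per the file headers, the deposited counts were made with featureCounts 1.5.1 on primary alignments, by gene identifier and without a strand or multi-overlap option, on a UCSC annotation of mm10; per the labels' protocols, reads were 75 bases and single-end. Trimmomatic, TopHat, Bowtie and DESeq2 are named, without versions or roles, in the submitters' processing notes. Exon lengths in bases, a column with no sample, came with the deposited counts.

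Counts of all 23337 genes were fitted in edgeR 4.0.16 (R 4.3.3) with filterByExpr (minimum count 10), TMM scaling and a robust quasi-likelihood fit, neonatal minus adult, with Benjamini-Hochberg adjustment over all genes tested and a threshold of 0.05. The approximate SE is the absolute log2 fold change over the square root of F. RPKM is CPM per kilobase of exon length. A prior count of 2 was used for log2 CPM in correlations. Alternatives were DESeq2 1.42.0, limma voom 3.58.1, other scalings and filters, a fit that was not robust, thinning to the smallest library, summed rows of near-identical genes and each library left out in turn.

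The heavy chain genes and gene lists were chosen with earlier results of these data known. Named genes were the 7 heavy chain genes, B2m, Nlrc5, Irf1 and Rfx5, up to 3 genes of each other list with the smallest p, and the 5 closest profiles. Genes called without neonatal replicate 4, H2-Q10 and the marker genes given values were added after their values were seen. Adgre1 is present under its older symbol Emr1. H2-L, H2-Q5, Spi1, Trac, Hbb-bs and Hbb-bt were not matched by symbol and are not analysed here.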

Additional observations from a re-analysis of the deposited data

How the results depend on the processing

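All 6 tested heavy chain genes stayed positive under the 16 alternatives run. H2-K1 ran from 0.51 to 0.81 on the log2 scale, H2-D1 from 0.54 to 0.87, H2-Q4 from 0.58 to 0.94, H2-Q6 from 0.94 to 1.91, H2-T23 from 0.72 to 1.05 and H2-M3 from 0.33 to 0.96. The lowest H2-Q6 and the highest H2-Q4 value, both 0.94, are that of the summed H2-Q rows. On its own row H2-Q4 reached 0.83, without adult replicate 1, and H2-Q6 was lowest at 1.53, without adult replicate 2. No heavy chain gene other than H2-Q6 was called under any of them, and H2-Q6 was called by DESeq2 and without neonatal replicate 4. DESeq2 called 759 genes and 1 of the 6, against 7 and 0 in the edgeR fit; the cause was not tested. With each library left out in turn, edgeR called 1 to 828 genes and 0 to 1 of the 6, the highest of both without neonatal replicate 4. B2m ran from -0.18 without that library to 1.004 without neonatal replicate 8. Other scalings, filters, the fit that was not robust, thinning and limma voom left 5 to 7 genes called and 0 of the 6. No paired analysis was possible because the groups share only replicate number 4. Depth limits neonatal replicate 4 most, with 41 counts for H2-Q4. Thinning all libraries to its total left 6 genes called, against 7 in the fit on full counts. Leaving neonatal replicate 4 out, which is a different set of libraries, gave 828. Some levels also set neonatal replicate 4 apart from neonatal replicates 7 and 8, such as B2m (3005 against 1069 and 705 CPM) and Tap1 (27.2 against 157 and 156 CPM). Others did not, such as H2-K1 (546 against 587 and 508 CPM). The reason was not tested.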
